A study of Caenorhabditis elegans with 36 samples.

Results

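The 7 genes *tir-1*, *nsy-1*, *sek-1*, *pmk-1*, *atf-7*, *zip-2* and *irg-1* were examined for listed binding regions of HDA-1 and DVE-1 in *Caenorhabditis elegans*. They were picked by symbol from the Ensembl annotation of the WBcel235 assembly by a rule that uses no peak, although the genes themselves were chosen with earlier results of these data known, and are 7 of 19973 protein-coding genes among 46890 annotated genes on the 6 nuclear chromosomes. All 7 symbols matched 1 gene each. The study asked where the histone deacetylase HDA-1 and the homeodomain protein DVE-1 bind chromatin with and without mitochondrial stress. Whole worms on day 1 of adulthood, raised at 20 °C, were cross-linked, and GFP-tagged protein was precipitated with GFP-binding agarose. The 36 libraries were 18 ChIP and 18 input samples, the input being chromatin that was not precipitated. Peaks of the broad kind had been called with MACS2, and the authors deposited their positions as 1 list per condition.

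HDA-1 was precipitated from worms with *hda-1p::hda-1::gfp* and DVE-1 from worms with *dve-1p::dve-1::gfp*, in both cases combined with *glp-4(bn2)*. In each strain the tagged protein is driven by its own promoter from a transgene, and the endogenous gene is present as well. The shared *glp-4(bn2)* is a temperature-sensitive allele that limits germline proliferation. How far it did so in these worms, raised at 20 °C, cannot be read from the peak lists. For either protein the worms were fed L4440, the empty vector used as control RNAi, or L4440 with *atp-2* RNAi, which targets the beta subunit of the mitochondrial ATP synthase. The other groups received RNAi against the partner, *dve-1* for HDA-1 and *hda-1* for DVE-1, with or without *atp-2* RNAi. Each ChIP group had 2 samples, except both HDA-1 groups with *dve-1* RNAi, which had 3. No library from worms without a GFP tag was analysed here, and whole worms give no information on the tissue in which a peak arose. The samples with partner RNAi were registered in a separate run of sample numbers from the control and *atp-2* samples. A difference between these sets of libraries therefore cannot be told apart from the partner RNAi.

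The lists held between 4279 peaks (DVE-1, control RNAi) and 9862 peaks (HDA-1, *dve-1* and *atp-2* RNAi), and the median peak width ranged from 710.5 to 1301 bp. Peak height, read counts and the depth of each sample cannot be read from positions. With 1 list per condition there was also no spread between samples, so no difference below could be tested and a gene that is not listed is not shown to be unbound. A peak was assigned to a gene when at least 1 bp of it lay within 500 bp of the annotated 5′ end, a window of 1001 bp, and the gene body was taken from the first to the last annotated base.

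The p38 pathway is a conserved kinase cascade of innate immunity. In the worm intestine the adaptor TIR-1, the homolog of mammalian SARM, acts upstream of the MAP kinase kinase kinase NSY-1, which activates the MAP kinase kinase SEK-1, which in turn activates the p38 MAP kinase PMK-1. PMK-1 phosphorylates ATF-7, a bZIP transcription factor of the CREB/ATF family that controls many infection response genes. The bZIP factor ZIP-2 controls a response to *Pseudomonas aeruginosa* and to blocked translation that runs largely in parallel to the p38 cascade, and *irg-1* is its best known target.

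The 300 bases upstream of the annotated 5′ ends of *irg-1*, *zip-2*, *nsy-1* and *tir-1* are shown. These genes stood for different patterns found: a peak in some lists, in all 8 lists, in 7 lists and in none. The windows of *sek-1*, *pmk-1* and *atf-7* are not shown because they hold annotated untranslated bases of neighbouring genes. The pattern of *atf-7*, with a peak in HDA-1 lists only, is thus not represented. The upstream bases of *irg-3*, a non-member listed in the same conditions as *irg-1*, are shown for comparison and were chosen after its values were seen. They were read from the RefSeq genome of WBcel235, 5′ to 3′ on the strand of the gene. Capitals mark TGATAA or its reverse complement TTATCA, the word bound by GATA factors such as ELT-2, which directs intestinal transcription. The windows are V:3523287-3523586 (*irg-1*, plus strand), V:2592291-2592590 (*irg-3*, plus strand), III:832682-832981 (*zip-2*, plus strand), II:5022457-5022756 (*nsy-1*, plus strand) and III:3901643-3901942 (*tir-1*, minus strand).
irg-1: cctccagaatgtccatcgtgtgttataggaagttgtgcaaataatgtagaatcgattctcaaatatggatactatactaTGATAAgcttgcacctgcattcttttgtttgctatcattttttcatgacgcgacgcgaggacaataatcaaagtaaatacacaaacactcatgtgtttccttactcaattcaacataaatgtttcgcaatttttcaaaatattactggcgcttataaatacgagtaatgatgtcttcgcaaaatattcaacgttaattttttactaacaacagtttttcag
irg-3: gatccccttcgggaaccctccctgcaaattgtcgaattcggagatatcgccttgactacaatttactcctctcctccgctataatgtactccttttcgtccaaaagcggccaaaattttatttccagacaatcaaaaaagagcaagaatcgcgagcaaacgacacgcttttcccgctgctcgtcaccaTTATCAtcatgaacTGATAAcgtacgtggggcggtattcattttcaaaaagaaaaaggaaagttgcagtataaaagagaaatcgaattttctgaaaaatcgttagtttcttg
zip-2: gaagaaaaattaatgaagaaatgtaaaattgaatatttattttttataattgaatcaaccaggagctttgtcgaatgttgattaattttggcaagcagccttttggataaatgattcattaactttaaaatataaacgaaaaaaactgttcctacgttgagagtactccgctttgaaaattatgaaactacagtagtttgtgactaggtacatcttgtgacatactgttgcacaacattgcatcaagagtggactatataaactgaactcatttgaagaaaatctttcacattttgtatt
nsy-1: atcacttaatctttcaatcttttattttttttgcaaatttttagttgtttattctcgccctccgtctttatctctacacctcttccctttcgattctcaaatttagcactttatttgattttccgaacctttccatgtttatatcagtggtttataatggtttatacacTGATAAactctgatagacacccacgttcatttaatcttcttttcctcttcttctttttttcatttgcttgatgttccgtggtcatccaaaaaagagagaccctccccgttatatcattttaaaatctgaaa
tir-1: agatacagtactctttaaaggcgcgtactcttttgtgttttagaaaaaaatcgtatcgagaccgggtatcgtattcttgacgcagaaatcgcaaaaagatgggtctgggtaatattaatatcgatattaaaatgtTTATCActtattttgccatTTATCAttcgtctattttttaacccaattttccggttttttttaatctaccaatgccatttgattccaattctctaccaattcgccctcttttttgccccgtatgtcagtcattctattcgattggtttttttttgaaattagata

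All 300 bases of the *irg-1* window lay in a peak in 4 lists and none of them in the other 4, and the same was true of the *irg-3* window. The *zip-2* bases were inside a peak in all 8 lists, the *nsy-1* bases in each list except HDA-1 under *dve-1* RNAi, and the *tir-1* bases in none. The *irg-1* window held 1 GATA word, starting 221 bases before the 5′ end, *nsy-1* 1 and *tir-1* 2, while *zip-2* held 0. Of all 19973 protein-coding genes, 30.7% had at least 1 GATA word in this window on either strand, and 4 of the 7 members had it. The cyclic AMP response element TGACGTCA, a palindrome bound by CREB/ATF factors, was present upstream of 1.57% of all genes and of 0 of the 7 members. In the 1001-bp windows it was found for 5.03% of genes and again 0 members, and the GATA word for 65.3% of genes and 6 members, *atf-7* being the exception. A pseudogene on the opposite strand takes up 87 of the 300 *irg-1* bases.

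Between 2 and 5 of the 7 members had a peak at the 5′ end in a given list. For HDA-1 there were 4 members under control RNAi (*nsy-1*, *sek-1*, *atf-7* and *zip-2*), where 31.8% of all protein-coding genes had such a peak. Under *atp-2* RNAi there were 5, the same 4 and *irg-1*, against 31.3% of all genes. Under *dve-1* RNAi there were 2, *sek-1* and *zip-2*, against 27.8%. With *dve-1* and *atp-2* RNAi there were 4, the same as under control RNAi, against 31.8%. The HDA-1 lists thus had *sek-1* and *zip-2* in common.

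For DVE-1 there were 2 members under control RNAi, *nsy-1* and *zip-2*, against 19.9% of all genes in that shorter list. Each of the other DVE-1 lists held 4, namely *nsy-1*, *sek-1*, *zip-2* and *irg-1*. The share of all genes was 31.2% with *atp-2*, 29.9% with *hda-1* and 34.9% with combined RNAi. With 7 genes, 1 gene is a large step in such a share, and counts of 2 to 5 of 7 were not tested against these backgrounds. *zip-2* belonged to the 14.2% of genes (2843) with a peak in all 8 lists, and *tir-1* and *pmk-1* to the 53.5% (10684) with a peak in none.

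**Figure D1:**
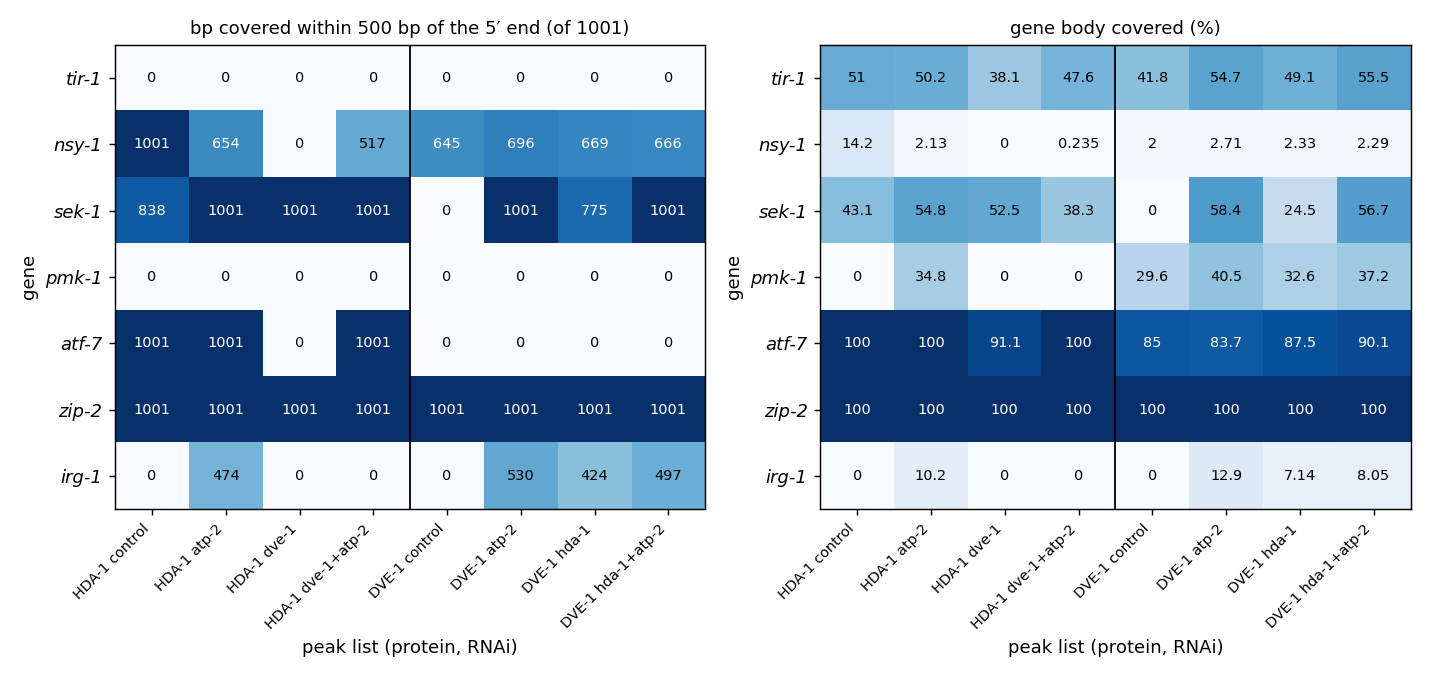
Base pairs covered within 500 bp of the 5′ end (left, of 1001 bp) and percent of the gene body covered by peaks (right) for the 7 genes in the 8 lists, 1 list per condition and no error. *zip-2* was at 1001 bp and 100% throughout, *tir-1* and *pmk-1* at 0 bp at the 5′ end, and *irg-1* was covered in 4 lists.

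*tir-1* (WBGene00006575, III:3869590-3901642, minus strand) is the longest member, with 32053 bp and 13 annotated transcripts that begin at 11 positions, compared with a median of 2027 bp for protein-coding genes. No list had a peak within 500 bp of its outermost 5′ end, and the nearest peak was between 826 bp (HDA-1, *atp-2* RNAi) and 2647 bp away (DVE-1, *hda-1* and *atp-2* RNAi). Peaks covered much of the gene further downstream. For HDA-1 they covered 51% of the body under control RNAi, 50.2% under *atp-2* RNAi, 38.1% under *dve-1* RNAi and 47.6% with both. For DVE-1 the values were 41.8% under control RNAi, 54.7% with *atp-2*, 49.1% with *hda-1* and 55.5% with combined RNAi.

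Several *tir-1* transcripts begin inside these peaks. Of the 11 annotated starts, 5 lay in a peak in all 8 lists, at 13912, 14034, 28131, 28171 and 30215 bp downstream of the outermost one. The start at 19636 bp was in a peak in the HDA-1 lists with *atp-2* RNAi, with and without *dve-1* RNAi, and in no DVE-1 list. The starts at 0, 17, 10182 and 10632 bp had no peak within 500 bp in any list. The start at 18916 bp was within 500 bp of a peak in the 4 HDA-1 lists only. The choice of start therefore decided whether *tir-1* was listed.

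Over its 3′ part *tir-1* lay under a wide peak in all 8 lists. The peak measured 17090, 17155, 14985 and 14936 bp in the HDA-1 lists under control, *atp-2*, *dve-1* and combined RNAi. In the DVE-1 lists it measured 10641 bp under control, 18730 bp under *atp-2*, 8572 bp under *hda-1* and 8658 bp under combined RNAi. The HDA-1 peaks and the DVE-1 peak under *atp-2* RNAi ran on past the gene over the 5′ ends of *rpl-3*, which encodes a ribosomal protein, *acs-19*, an acyl-CoA synthetase gene, and *brc-1*, the BRCA1 homolog. The other 3 DVE-1 peaks held no 5′ end of another protein-coding gene. Bases covered in all 8 lists added up to 8036 bp, or 25.1% of *tir-1*, of which 6515 bp formed a single stretch from 23918 to 30432 bp after the 5′ end.

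**Figure D2:**
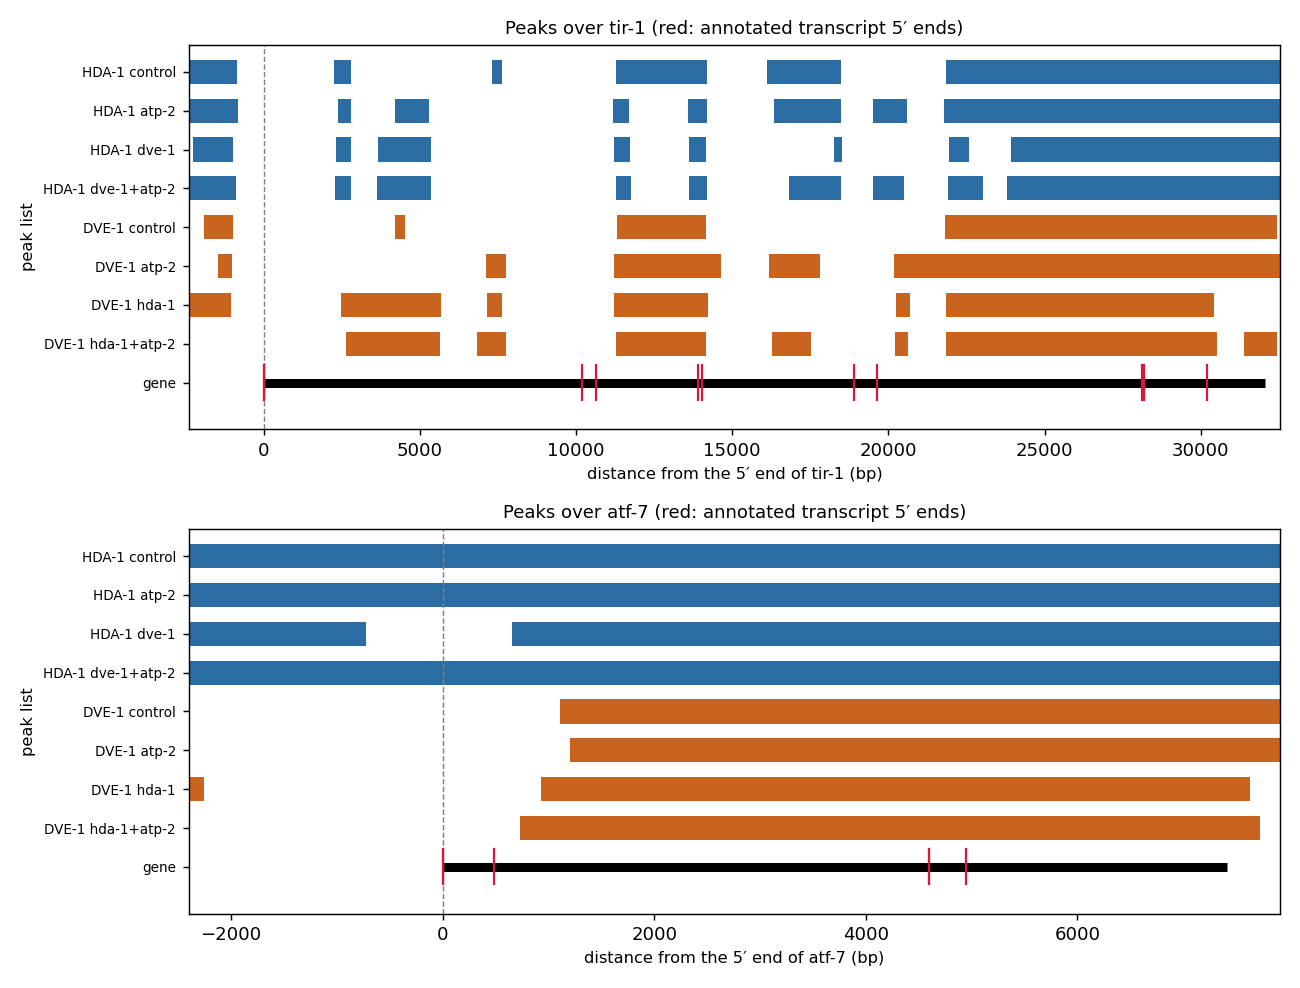
Peaks over *tir-1* (top) and *atf-7* (bottom) in the 8 lists (HDA-1 blue, DVE-1 orange) by distance from the outermost annotated 5′ end in bp; the black bar is the gene and red ticks are annotated transcript 5′ ends. In all 8 lists 5 of 11 *tir-1* starts lay in a peak, and DVE-1 peaks on *atf-7* began between 735 and 1207 bp downstream of its 5′ end. Peaks that neither touch the gene nor lie within 2500 bp of the 5′ end are not drawn.

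*nsy-1* (WBGene00003822, II:5022757-5029999, plus strand, 7243 bp) had a peak at its 5′ end in 7 lists. The covered part of the 1001-bp window was 1001 bp for HDA-1 under control RNAi, 654 bp under *atp-2* RNAi, 0 bp under *dve-1* RNAi and 517 bp with *dve-1* and *atp-2* RNAi. For DVE-1 it was 645, 696, 669 and 666 bp under control, *atp-2*, *hda-1* and combined RNAi. The DVE-1 values lay in a narrow range, while the HDA-1 list under *dve-1* RNAi stood apart, with its nearest peak ending 998 bp upstream.

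The *nsy-1* peaks lay mainly upstream of the gene. They reached from 3858 to 6905 bp before the 5′ end to between 16 and 1026 bp after it, and each of them except the HDA-1 peak with *dve-1* and *atp-2* RNAi also held the 5′ end of the neighbouring gene *F59A6.13*. The gene body was covered for 14.2% in the HDA-1 control list and for at most 2.71% elsewhere, and 6216 of its bases were in no peak of any list. An identical set of 7 lists was found for 252 genes, or 1.26% of all. By the summed absolute difference in covered bp over the 8 lists, the nearest genes were *rabn-5* (478 bp), *C18A3.10* (556 bp) and *T07F12.1* (609 bp).

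*sek-1* (WBGene00004758, X:7816734-7821036, plus strand, 4303 bp) was listed in each condition except DVE-1 under control RNAi. For HDA-1 the window was covered for 838 bp under control RNAi and for 1001 bp under *atp-2*, *dve-1* and combined RNAi. For DVE-1 it was covered for 0 bp under control RNAi, 1001 bp with *atp-2*, 775 bp with *hda-1* and 1001 bp with combined RNAi. The DVE-1 control list did hold a peak nearby, which began 2076 bp and ended 1134 bp upstream of the 5′ end. With *atp-2* RNAi a single DVE-1 peak ran from 2126 bp upstream to 2514 bp downstream.

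Body coverage of *sek-1* was 43.1%, 54.8%, 52.5% and 38.3% in the HDA-1 lists under control, *atp-2*, *dve-1* and combined RNAi. In the DVE-1 lists it was 0%, 58.4%, 24.5% and 56.7% under control, *atp-2*, *hda-1* and combined RNAi. The 3′ part stayed outside the peaks, with 1788 bp of the gene covered in no list. The peak at the 5′ end also held the start of *R03G5.6* in each of the 7 lists, so the peaks cannot be assigned to *sek-1* alone. The same 7 lists were found for 564 genes, or 2.82% of all, and the genes nearest in covered bp were *lips-15* (174 bp), *nop-1* (285 bp) and *F58F12.1* (337 bp).

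**Figure D3:**
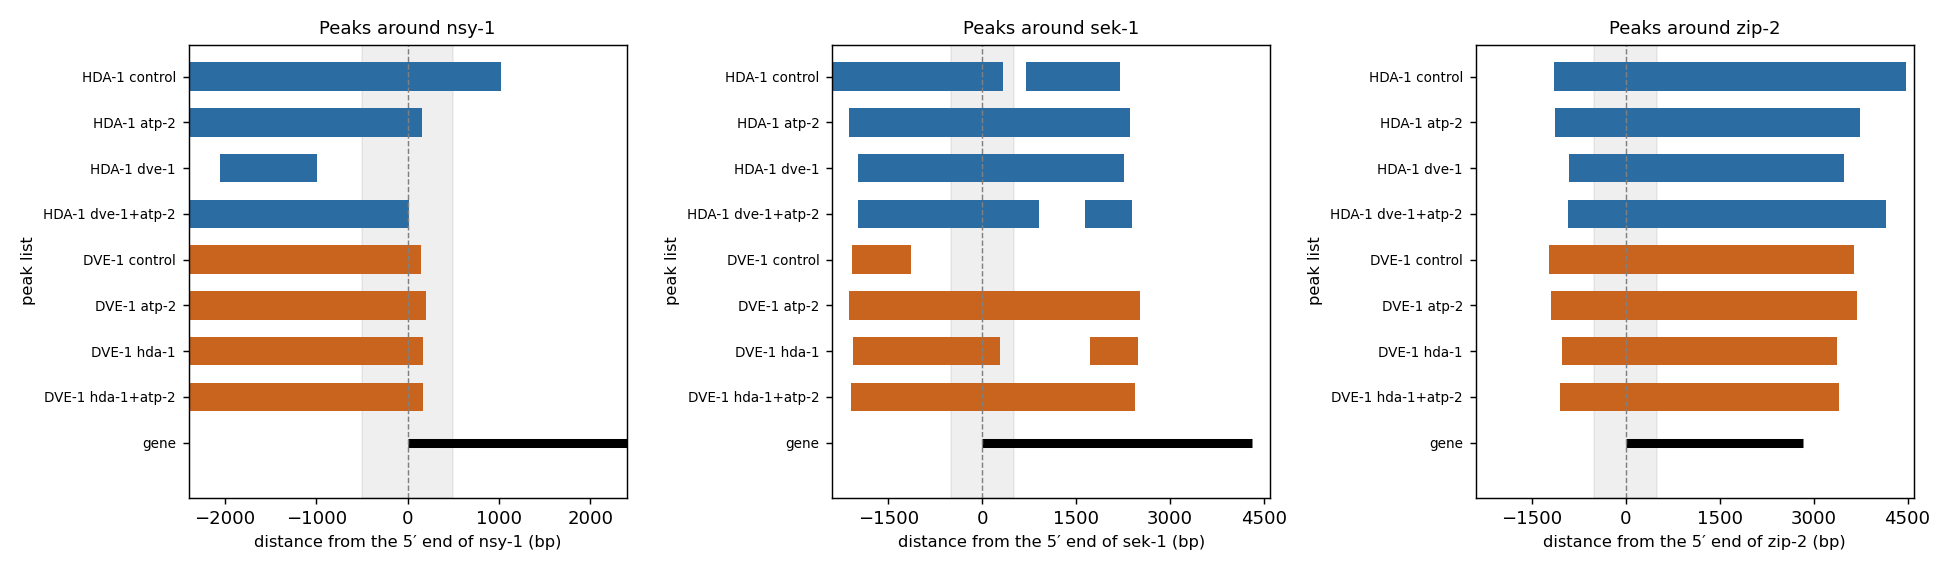
Peaks around *nsy-1*, *sek-1* and *zip-2* in the 8 lists (HDA-1 blue, DVE-1 orange) by distance from the 5′ end in bp; the black bar is the gene, the dashed line its 5′ end and grey the 500 bp on either side. Peaks wider than the axis are drawn to its edge, as is the *nsy-1* gene. The *nsy-1* peak is missing from the grey area in HDA-1 under *dve-1* RNAi and the *sek-1* peak in DVE-1 under control RNAi.

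*pmk-1* (WBGene00004055, IV:8148794-8151266, plus strand, 2473 bp), which encodes the p38 kinase itself, had 0 bp covered at its 5′ end in all 8 lists. It is the last gene of an operon that begins with *pmk-3* and *pmk-2*, which encode further p38 family kinases. In worm operons the genes are transcribed together and separated by trans-splicing, so the annotated 5′ end of a downstream gene need not be a site of transcription initiation. The nearest peak to the *pmk-1* 5′ end was 2702 bp away in HDA-1 under control RNAi, and between 1472 and 2250 bp away in the other lists.

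At the head of the operon, *pmk-3* (IV:8139219-8143154) was covered within 500 bp of its 5′ end in 5 lists. For HDA-1 the covered length was 684 bp under control RNAi and 731 bp under *atp-2* RNAi, and 0 bp in both lists with *dve-1* RNAi. For DVE-1 it was 0 bp under control RNAi and 833, 698 and 815 bp under *atp-2*, *hda-1* and combined RNAi. The *pmk-2* window (gene IV:8143500-8148648) was covered for 134 to 212 bp in the HDA-1 lists and for 191 to 219 bp in the DVE-1 lists other than control, where it was 0 bp. These *pmk-2* peaks ended between 282 and 367 bp upstream of its 5′ end, over the end of *pmk-3*.

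The only peaks on the *pmk-1* body itself were at its 3′ end. They covered 34.8% of the gene in HDA-1 under *atp-2* RNAi and 0% in the other HDA-1 lists. In the DVE-1 lists they covered 29.6% under control, 40.5% under *atp-2*, 32.6% under *hda-1* and 37.2% under combined RNAi. All 5 peaks extended beyond the gene over the 5′ end of *faah-2*, a fatty acid amide hydrolase gene, and 1472 bp of *pmk-1* from its 5′ end onward were in no peak of any list.

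**Figure D4:**
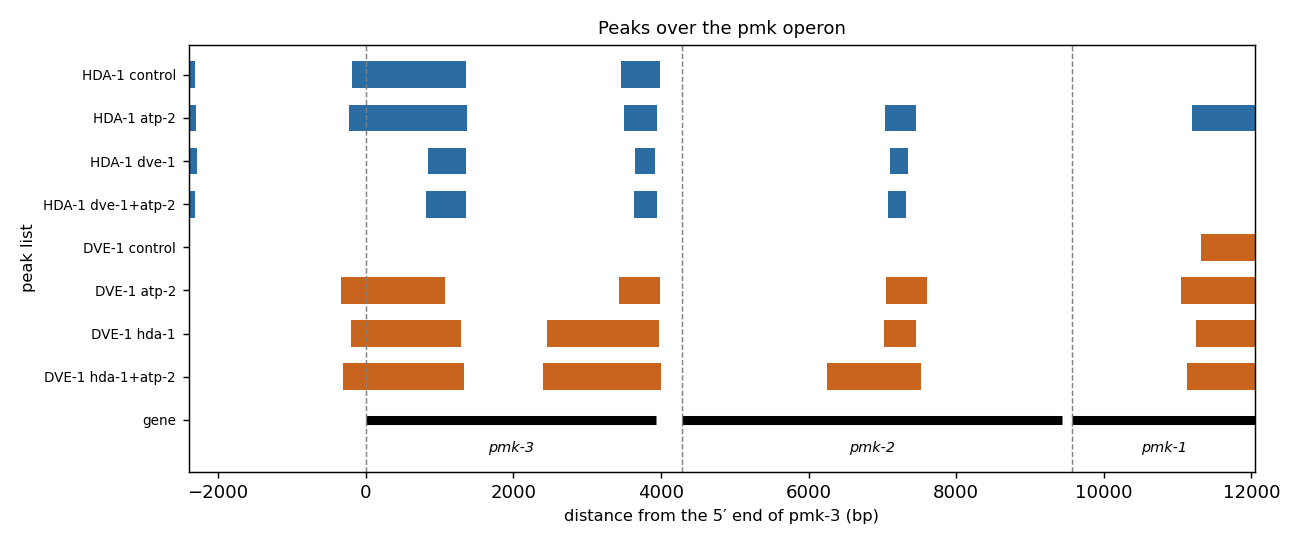
Peaks over the operon of *pmk-3*, *pmk-2* and *pmk-1* in the 8 lists (HDA-1 blue, DVE-1 orange) by distance from the 5′ end of *pmk-3* in bp; black bars are the genes and dashed lines their 5′ ends, and peaks are drawn to the end of *pmk-1*. A peak spans the *pmk-3* 5′ end in 5 lists, no peak lies within 500 bp of the *pmk-1* 5′ end, and 5 lists have a peak at the *pmk-1* 3′ end.

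*atf-7* (WBGene00000223, III:4491627-4499045, minus strand, 7419 bp) had a peak at its 5′ end in HDA-1 lists and in no DVE-1 list. The window was covered for 1001 bp in the HDA-1 lists under control, *atp-2* and combined *dve-1* and *atp-2* RNAi. It was covered for 0 bp in HDA-1 under *dve-1* RNAi and for 0 bp in all 4 DVE-1 lists. The peaks of the lists without coverage began close by, 660 bp downstream for HDA-1 under *dve-1* RNAi and 1113, 1207, 931 and 735 bp downstream for DVE-1 under control, *atp-2*, *hda-1* and combined RNAi. Only 59 genes, or 0.295% of all, had a peak in the same 3 lists and in no other.

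Beyond the window, most of *atf-7* lay in peaks of both proteins. The body was covered for 100% in the HDA-1 lists under control, *atp-2* and combined RNAi and for 91.1% under *dve-1* RNAi. For DVE-1 it was covered for 85%, 83.7%, 87.5% and 90.1% under control, *atp-2*, *hda-1* and combined RNAi. The stretch from 1207 bp after the 5′ end to the last base, 6212 bp or 83.7% of the gene, was covered in all 8 lists. Of the 6 annotated starts, the 3 at 4595, 4598 and 4951 bp lay in this stretch, while those at 0, 2 and 486 bp lay in a peak in the 3 HDA-1 lists only.

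The HDA-1 peaks over *atf-7* were among the widest of their lists. They measured 17658 bp under control RNAi (rank 20 by width), 18003 bp under *atp-2* RNAi (rank 10) and 17951 bp with *dve-1* and *atp-2* RNAi (rank 5), and they also held the 5′ ends of *cct-5*, a chaperonin subunit gene, and *C07G2.5*. Under *dve-1* RNAi the same region held separate peaks of 8346 and 8953 bp, and the gap between them took in the *atf-7* 5′ end. The peaks of that list were narrower in general, with a median of 733 bp against 1165 bp under control RNAi, and the part of this in the gap was not tested. The genes nearest to *atf-7* in covered bp were *F29B9.5* (445 bp), *abts-1* (472 bp) and *sng-1* (509 bp).

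*zip-2* (WBGene00019327, III:832982-835814, plus strand, 2833 bp) was covered for 1001 bp at its 5′ end and over 100% of its body in all 8 lists. The peaks measured between 4392 and 5626 bp for HDA-1 and between 4403 and 4885 bp for DVE-1. They began 911 to 1222 bp upstream of the 5′ end and ended 3378 to 4471 bp downstream of it. Among all protein-coding genes, 260 (1.3%) were wholly covered in all 8 lists. The peaks also held the 5′ end of *ceeh-1*, an epoxide hydrolase gene.

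RefSeq places the 5′ end of *zip-2* 1106 bp further downstream, at one of the 3 starts in the Ensembl annotation, and all 3 starts lay inside the peak in each list. The positions of the other 6 members were the same in both annotations. In covered bp *zip-2* tied with 364 genes, and *tir-1* and *pmk-1* with 10683 genes each.

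*irg-1* (WBGene00015574, V:3523587-3524679, plus strand, 1093 bp), the infection response gene downstream of ZIP-2, was the only member that both proteins' lists held with *atp-2* RNAi and lacked with control RNAi. The window was covered for 474 bp in HDA-1 under *atp-2* RNAi and for 0 bp in HDA-1 under control, *dve-1* and combined RNAi. For DVE-1 it was covered for 0 bp under control RNAi, 530 bp with *atp-2*, 424 bp with *hda-1* and 497 bp with combined RNAi. Of all protein-coding genes, 300 (1.5%) were likewise listed for both proteins with *atp-2* and for neither with control RNAi, and 141 (0.706%) were listed in the same 4 lists as *irg-1* and in no other. The call depended on the narrow peaks. With at least 50% of the window required, *irg-1* was no longer gained for HDA-1 under *atp-2* RNAi, leaving 0 members gained there, and with each list reduced to its widest 4279 peaks it was gained for neither protein.

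The 4 *irg-1* peaks almost coincided. They lay at V:3523224-3523697 for HDA-1 under *atp-2* RNAi and at V:3523198-3523727, V:3523241-3523664 and V:3523178-3523674 for DVE-1 under *atp-2*, *hda-1* and combined RNAi. They thus spanned from between 346 and 409 bp upstream to between 77 and 140 bp downstream of the 5′ end, with 424 bp common to all 4. *irg-1* was the only protein-coding gene whose 5′ end they held.

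These were narrow peaks. Between 10.6% and 20.1% of the peaks in their lists were narrower. In the lists without a peak at *irg-1* the nearest one was far away, at 17239 bp for HDA-1 under control RNAi and 55355 and 55358 bp for HDA-1 under *dve-1* and combined RNAi. For DVE-1 under control RNAi it was 29045 bp away. The body of *irg-1* was covered for 10.2% in HDA-1 under *atp-2* RNAi and for 7.14% to 12.9% in the 3 DVE-1 lists, and 952 of its 1093 bp were in no peak. The genes nearest to *irg-1* in covered bp were *fbxa-48* (128 bp), *T06A1.5* (139 bp) and *Y17D7B.2* (144 bp).

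*irg-3*, another infection response gene, was the only one of 22 infection response genes and 20 kinase pathway and regulator genes listed in the same 4 lists as *irg-1*. Its window was covered for 539 bp in HDA-1 under *atp-2* RNAi and for 564, 648 and 570 bp in DVE-1 under *atp-2*, *hda-1* and combined RNAi. The peaks began between 390 and 427 bp upstream and ended between 140 and 220 bp downstream of its 5′ end. Both genes lie on chromosome V, *irg-3* at V:2592591-2595062.

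**Figure D5:**
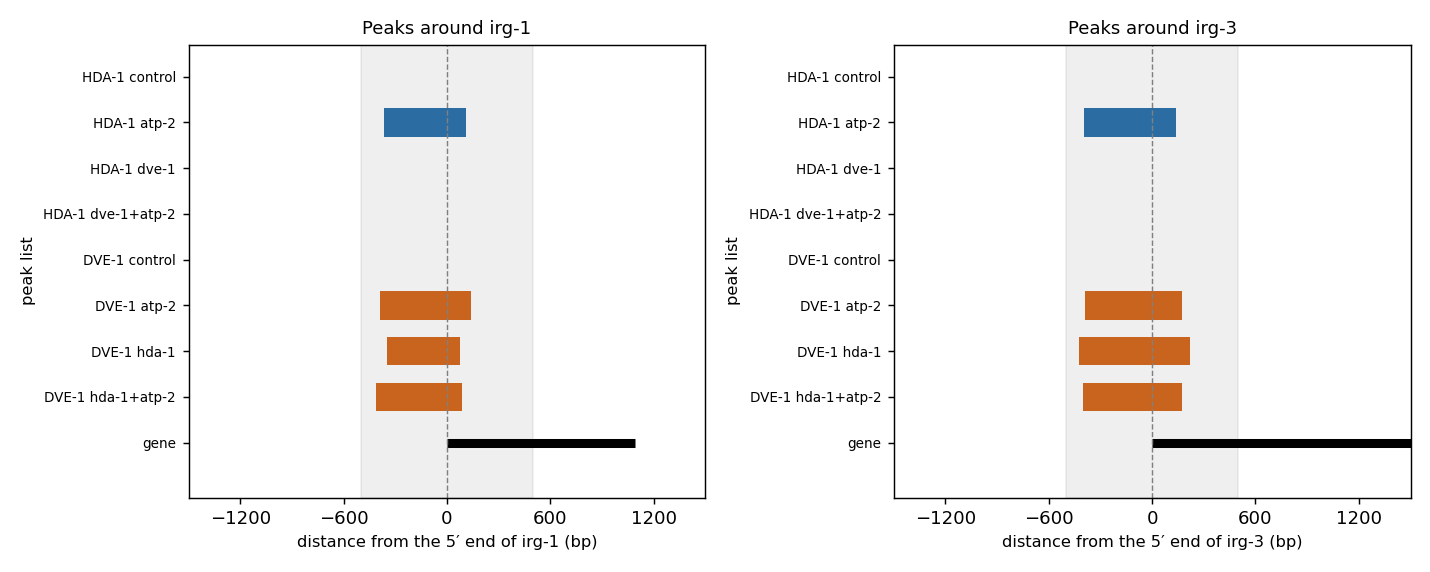
Peaks around *irg-1* (left) and *irg-3* (right) in the 8 lists (HDA-1 blue, DVE-1 orange) by distance from the 5′ end in bp; the black bar is the gene, the dashed line its 5′ end and grey the 500 bp on either side. At both genes a peak is drawn in the same 4 lists, HDA-1 under *atp-2* RNAi and DVE-1 under *atp-2*, *hda-1* and combined RNAi.

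Set side by side, conditions differed at no more than 2 of the 7 members in a given comparison, and each comparison shares a list with others. The members that changed in at least 1 comparison were *nsy-1*, *sek-1*, *atf-7* and *irg-1*. Of the others, *zip-2* was listed throughout and *tir-1* and *pmk-1* in no list. The study reported that *dve-1* RNAi lowered the level of tagged HDA-1 protein and *hda-1* RNAi that of tagged DVE-1 protein. The amount of tagged protein may thus differ between lists with and without partner RNAi, and its part in these comparisons was not tested. Between HDA-1 under *atp-2* and control RNAi, *irg-1* was gained, as were 2.72% of all genes, and 0 members were lost, against 3.22%. Between *dve-1* and *atp-2* RNAi and *dve-1* RNAi alone, *nsy-1* and *atf-7* were gained, against 5.39% of genes, and 0 members were lost, against 1.38%. Between *dve-1* and control RNAi, 0 members were gained, against 3.28%, and *nsy-1* and *atf-7* were lost, against 7.23%. Both of these comparisons rest on the same HDA-1 list under *dve-1* RNAi, and with 1000 or 2000 bp on either side of the 5′ end 0 members were gained in the former and 0 lost in the latter, the nearest peaks lying 998 bp (*nsy-1*) and 660 bp (*atf-7*) away. Between HDA-1 with *dve-1* and *atp-2* RNAi and HDA-1 with *atp-2* RNAi, 0 members were gained, against 5.79%, and *irg-1* was lost, against 5.22%.

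For DVE-1 under *atp-2* against control RNAi, *sek-1* and *irg-1* were gained, against 12.2% of all genes, and 0 members were lost, against 0.806%. The same pair was gained under *hda-1* against control RNAi, where 11.5% of genes were gained, and 0 members were lost, against 1.58%. Both comparisons use the DVE-1 control list, the one with the fewest peaks. Between DVE-1 with *hda-1* and *atp-2* RNAi and *hda-1* RNAi alone, 0 members were gained and 0 lost, against 6.39% and 1.39% of genes. Between *hda-1* and *atp-2* RNAi and *atp-2* RNAi alone, 0 were gained and 0 lost, against 6.7% and 3.1%. The presence of *sek-1* and *irg-1* in DVE-1 lists was therefore the same with and without *atp-2* RNAi once *hda-1* RNAi was applied.

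Measured over the gene body, members with at least 50% covered numbered 3 for HDA-1 under control RNAi (*tir-1*, *atf-7* and *zip-2*), against 9.34% of all genes, and 4 under *atp-2* RNAi, with *sek-1* added, against 8.27%. Under *dve-1* RNAi there were 3 (*sek-1*, *atf-7* and *zip-2*), against 7.31%, and with *dve-1* and *atp-2* RNAi 2 (*atf-7* and *zip-2*), against 8.32%. For DVE-1 there were 2 under control RNAi, against 5.82%, and 2 under *hda-1* RNAi, against 7.71%, in both cases *atf-7* and *zip-2*. There were 4 under *atp-2* RNAi, against 8.39%, and 4 with *hda-1* and *atp-2* RNAi, against 8.89%, in both cases *tir-1*, *sek-1*, *atf-7* and *zip-2*. The median coverage of the 7 bodies ranged from 29.6% (DVE-1, control RNAi) to 55.5% (DVE-1, *hda-1* and *atp-2* RNAi), and the median over all genes was 0% in each list. The median length of the members was 4303 bp against 2027 bp for all protein-coding genes, *irg-1* being shorter than that with 1093 bp, and the part of length in this coverage was not tested.

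A list of 20 other kinase pathway and regulator genes was chosen with earlier results of these data known. It is not confined to the cascade described above and includes *mek-1*, *mlk-1*, *kgb-1*, *jnk-1*, *jkk-1*, *fshr-1* and *hlh-30*. In the HDA-1 lists under control, *atp-2*, *dve-1* and combined RNAi, 16, 15, 12 and 14 of these 20 genes had a peak at the 5′ end. These were 80%, 75%, 60% and 70% of the 20, against 31.8%, 31.3%, 27.8% and 31.8% of all genes. In the DVE-1 lists the numbers were 11, 17, 16 and 16 under control, *atp-2*, *hda-1* and combined RNAi, or 55%, 85%, 80% and 80%, against 19.9%, 31.2%, 29.9% and 34.9% of all genes. Of the 20, 9 were listed in all 8 lists and 3 in none, against 14.2% and 53.5% of all genes. Among the 9, *vhp-1*, which encodes a MAP kinase phosphatase, the C/EBP gene *cebp-1* and the Tribbles-like kinase gene *nipi-3* were covered for 1001 bp throughout. The 3 in none were *tpa-1*, *egl-8* and *jnk-1*.

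The GATA factor gene *elt-2* was listed in all 8 lists, with between 177 bp (HDA-1, *dve-1* RNAi) and 1001 bp (DVE-1, *hda-1* and *atp-2* RNAi) covered. Between *atp-2* and control RNAi, 0 of the 20 were gained for HDA-1, against 2.72% of all genes, and 1, *olrn-1*, was lost, against 3.22%. For DVE-1, 6 were gained, namely *pmk-2*, *pmk-3*, *dkf-2*, *olrn-1*, *cebp-2* and *jkk-1*, against 12.2%, and 0 were lost, against 0.806%. Under *hda-1* against control RNAi, DVE-1 gained 5 of the 20, against 11.5% of all genes, and lost 0, against 1.58%. Under *dve-1* against control RNAi, HDA-1 lost 4, against 7.23%, and gained 0, against 3.28%. The *cebp-2* window was covered for 637 bp in DVE-1 under *atp-2* RNAi and 0 bp under control RNAi, whereas HDA-1 covered 592 bp of it under control RNAi.

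Among 22 infection response genes, chosen in the same way, 11, 11, 5 and 11 were listed in the HDA-1 lists under control, *atp-2*, *dve-1* and combined RNAi. These were 50%, 50%, 22.7% and 50% of the 22, against 31.8%, 31.3%, 27.8% and 31.8% of all genes, so that the share under *dve-1* RNAi lay below that of all genes. In the DVE-1 lists 9, 16, 18 and 18 were listed under control, *atp-2*, *hda-1* and combined RNAi, or 40.9%, 72.7%, 81.8% and 81.8%, against 19.9%, 31.2%, 29.9% and 34.9% of all genes. None of these shares was tested. For HDA-1 under *atp-2* against control RNAi, *irg-3* was gained and *C17H12.8* lost, where 2.72% of all genes were gained and 3.22% lost. For DVE-1, 7 were gained, namely *irg-3*, *irg-4*, *K08D8.5*, *dod-22*, *dod-24*, *spp-1* and *mul-1*, against 12.2% of all genes, and 0 were lost, against 0.806%. Without *atp-2* RNAi, under *hda-1* against control RNAi, DVE-1 gained 9 of the 22, against 11.5%, and lost 0, against 1.58%, and both comparisons use the short DVE-1 control list. Between *dve-1* and control RNAi, 7 of the 22 were lost from the HDA-1 lists, against 7.23% of all genes, and 1 was gained (*nlp-31*, named after its values were seen), against 3.28%.

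The *irg* genes did not share 1 pattern. *irg-2* was listed in all 8 lists, with 391 to 837 bp covered, and *irg-7* in each list except HDA-1 under *dve-1* RNAi. *irg-4* was covered for 593, 760 and 705 bp in DVE-1 under *atp-2*, *hda-1* and combined RNAi and for 0 bp in the other 5 lists, among them all 4 HDA-1 lists. *irg-5* and *irg-6* were listed in none.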

How the data were processed

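HDA-1-GFP and DVE-1-GFP were measured by ChIP-seq in 18 ChIP and 18 input samples of whole worms. The authors trimmed reads with Trim Galore, mapped them to ce11 with BWA 0.7.13-r1126, kept uniquely mapped proper pairs, removed duplicates with Picard 2.17.6 and called broad peaks with MACS2 2.1.1. They deposited peak positions without a score, 1 list per condition. The authors' list names hold the term repOverlap, and the rule by which replicates were combined is not given in the sources used here. The study states a minimum sequencing depth that applies to all samples, but the depth of each sample is not given in the sources used here, and what a listed peak required in groups of 2 and of 3 samples is not known.

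The ce11 and WBcel235 assemblies are the same, and positions are counted from 1. Genes came from Ensembl release 115 and upstream bases from the RefSeq genome. Overlaps were computed in Python 3.11.15 with numpy 2.4.6. For 19973 genes the genes with a peak were identical to those from bedtools 2.31.1 in 8 of 8 lists, and 1000 of 1000 simulated windows gave the exact covered length. Figures were drawn with matplotlib 3.10.9.

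Samples were grouped by their labels. The comparisons were *atp-2* RNAi against none and partner RNAi against none, each at both levels of the other, and no test was run because each condition has 1 list. The genes named were the 7 members, genes whose 5′ end shares a peak or the operon with a member, the genes nearest to each member in covered bp, and fixed genes of both lists together with those gained or lost under *atp-2* RNAi. Genes outside this rule (*irg-3* as a match of *irg-1*, and *nipi-3*, *tpa-1*, *egl-8* and *jnk-1*) were singled out after their values were seen. The members and both gene lists were chosen with earlier results of these data known. Alternatives changed the distance, the transcript start, the minimum overlap, the width and number of peaks, and the part of the gene.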

Additional observations from a re-analysis of the deposited data

Results flagged for a closer look

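In 5 cases the bp of a gene body covered was higher with *atp-2* RNAi than without it in worms without the partner RNAi and lower in those with it, or the reverse. The difference was not tested in any of them, because each condition has 1 list. For HDA-1 the change at *tir-1* was -273 bp (16360 to 16087 bp) without and 3051 bp (12208 to 15259 bp) with *dve-1* RNAi, a difference of 3324 bp in a gene of 32053 bp. At *nsy-1* the HDA-1 change was -873 bp (1027 to 154 bp) without and 17 bp (0 to 17 bp) with *dve-1* RNAi, a difference of 890 bp. At *sek-1* it was 504 bp (1853 to 2357 bp) without and -612 bp (2258 to 1646 bp) with *dve-1* RNAi, a difference of -1116 bp. For DVE-1 the change at *nsy-1* was 51 bp (145 to 196 bp) without and -3 bp (169 to 166 bp) with *hda-1* RNAi, a difference of -54 bp. At *atf-7* it was -94 bp (6306 to 6212 bp) without and 196 bp (6488 to 6684 bp) with *hda-1* RNAi, a difference of 290 bp. The DVE-1 differences amount to shifts of a peak edge, and part of each HDA-1 difference lies between lists whose median peak widths differ (1165 and 1067 bp without, 733 and 710.5 bp with *dve-1* RNAi), a factor that was not tested.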

How the results depend on the processing

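The 32 counts of members were recomputed under alternatives. Of 256 values, 214 stayed within 1.5 times the count reported and 42 did not. The share of all genes under each alternative is not given here, and a wider window can only raise it or leave it unchanged. A higher count of members at 1000 or 2000 bp is therefore not a result about the members. Distances of 0 and 250 bp, leaving out peaks under 300 bp, using exons alone and leaving out the first 500 bp of the body moved 0 counts each. The members counted could still change. With exons alone, *tir-1* took the place of *sek-1* among the bodies covered by at least 50% under HDA-1 *dve-1* RNAi. *sek-1* dropped out under *atp-2* RNAi for both proteins, and *tir-1* was added under DVE-1 control RNAi (3 in place of 2). With 1000 bp, members with a peak under HDA-1 *dve-1* RNAi numbered 5 in place of 2, the gained and lost pair *nsy-1* and *atf-7* came to 0 in both comparisons of that list, *tir-1* was lost from DVE-1 in 1 count each under *atp-2* and under *hda-1* against control RNAi, and *atf-7* was gained as 1 member between DVE-1 with *hda-1* and *atp-2* RNAi and with *atp-2* RNAi. With 2000 bp, members with a peak numbered 5 under HDA-1 *dve-1* RNAi, 6 under DVE-1 control RNAi and 7 under DVE-1 *atp-2* and under *hda-1* RNAi. At that distance HDA-1 gained 2 with *atp-2* RNAi (*pmk-1* and *irg-1*), the *nsy-1* and *atf-7* pair was 0 in both comparisons, and HDA-1 lost 2 between *dve-1* with *atp-2* and *atp-2* RNAi. DVE-1 then gained 1 in each of the 2 comparisons with control and lost 1 (*tir-1*) in each comparison of *hda-1* with *atp-2* RNAi. Counting the start of any transcript gave 4 members under HDA-1 *dve-1* RNAi and 4 under DVE-1 control RNAi, and 1 in place of the 2 gained or lost at that HDA-1 list. Within the limit of 1.5 times, it also gave 6 in place of 4 under DVE-1 *atp-2*, *hda-1* and combined RNAi, where *tir-1* and *atf-7* were added. In the HDA-1 lists under control, *atp-2* and combined RNAi it added *tir-1*. Requiring 50% of the window left 0 members gained for HDA-1 with *atp-2* RNAi and 0 lost between *dve-1* with *atp-2* and *atp-2* RNAi, 1 (*sek-1*) gained for DVE-1 with *hda-1* RNAi, and 1 (*irg-1*) lost between *hda-1* with *atp-2* and *atp-2* RNAi. With each list reduced to its widest 4279 peaks, *irg-1* was no longer listed as gained or lost for HDA-1 (0 and 0), and DVE-1 gained 1 (*sek-1*) with *atp-2* and 1 with *hda-1* RNAi. With the central 50% of each peak, members with a peak numbered 2 under HDA-1 control and 1 under DVE-1 control RNAi. HDA-1 then gained 2 with *atp-2* RNAi (*sek-1* and *irg-1*), 1 with *dve-1* RNAi (*sek-1*) and 1 between *dve-1* with *atp-2* and *dve-1* RNAi, and lost 1 with *dve-1* RNAi. Bodies covered by at least 50% were then 1 and 2 for HDA-1 under control and *atp-2* RNAi and 1 in each of the 4 DVE-1 lists. The absence of *irg-1* from the widest peaks follows from its peak width, and the cause of the other differences was not tested.

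No paired analysis was possible because each condition has 1 list without replicates and no result comes from a test. No replicate was left out, since no list holds single samples. The depth of each sample is not given in the files, so a member that is not listed is not shown to be unbound. Peaks of several kb that hold the 5′ ends of neighbouring genes are not assigned to a member alone.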
